A study of Homo sapiens with 12 samples.

Results

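The keratin genes were followed in SUM149PT, an established line of inflammatory breast cancer cells, under an AKT kinase inhibitor, an inhibitor of EZH2, the methyltransferase of histone H3, or both. All symbols made of KRT, a number and at most 1 letter from A to C were taken from the raw count files, without keratin-associated proteins or pseudogenes, which gave 55 of 23228 genes. Of these, 27 had enough counts to be tested, 10 had no count in any library, and the other 18 were detected below the filter. The 4 groups held 3 libraries each, lettered A, B and C. They were ipatasertib, the AKT inhibitor, at 5 µM, tazemetostat, the EZH2 inhibitor, at 5 µM, the combination of both at the same doses, and DMSO, the vehicle. Tazemetostat or DMSO was given from day -5 on, while ipatasertib was added only on day 0, when all groups were moved to medium with 2% serum, and RNA was taken 24 h later. Every group was therefore collected in low serum, and exposure to tazemetostat was longer than exposure to ipatasertib. One cell line was used, and the labels do not say whether the libraries of a group were grown as separate cultures. The p-values therefore cover only how these libraries differ, which may be technical.

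Keratins are the intermediate filament proteins of epithelial cells. A filament is built from pairs of an acidic type I keratin and a basic type II keratin, so the genes are usually expressed in matched pairs. KRT5 with KRT14 or KRT15 mark the basal layer of stratified epithelia and the basal cells of the mammary gland, KRT8 with KRT18 and KRT19, and KRT7, are those of simple and luminal epithelia, KRT6A, KRT6B, KRT16 and KRT17 are induced in wounded and hyperproliferating epidermis, and KRT81 and KRT86 are hair keratins. In breast cancer, basal keratins are used to recognise the basal-like type.

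The libraries held 22355242 to 49970540 gene counts, and the limit set by a count of 0, taken as 3 counts, was 0.0600 to 0.134 CPM, the counts of a gene per 1e6 gene counts after scaling by TMM factors. Epithelial identity genes were expressed in every group, with EPCAM at 343 ± 52.1 CPM in the combination and 323 ± 16.0 CPM under DMSO (SD, n = 3). EPCAM does not speak for this list, whose 6 genes were all tested and moved in both directions. Against DMSO, 3 were higher and 2 lower with ipatasertib (edgeR, adjusted p under 0.05). The counts were also 3 higher and 2 lower with tazemetostat, and 3 higher and 2 lower with the combination. Markers of other cell types were given as lists. The leukocyte list had counts for 4 of 5 genes in each treated group and for 5 of 5 under DMSO, with summed levels of 286 to 299 CPM with ipatasertib, 277 to 316 with tazemetostat, 219 to 265 with the combination and 364 to 418 under DMSO. Its T cell gene CD3E had at most 3 counts per group. The endothelial list had counts for 4 of 4 genes and summed to 3.09 to 3.89, 1.44 to 1.93, 4.83 to 6.70 and 0.932 to 1.44 CPM in the same order of groups, with KDR at no more than 5 counts per group. The fibroblast list summed to 198 to 205, 64.9 to 73.3, 62.9 to 86.0 and 150.3 to 175 CPM, with counts for 5 of 6 genes with ipatasertib and 6 of 6 elsewhere, and PDGFRA at no more than 7 counts per group. CD3E, KDR and PDGFRA do not speak for their lists, whose sums rest on the other members. Of the leukocyte, endothelial and fibroblast lists, 3 of 5, 2 of 4 and 5 of 6 genes had enough counts to be tested. The sums moved with the treatments, and their part in the keratin results was not tested. Tazemetostat A and combination B differed most from their group mates, with a chi-square per degree of freedom against them of 17.3 to 19.1 and 14.4 to 24.9, against 2.64 to 6.68 for all other pairs of the same group. Values without both libraries are given below where a call named here changed.

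Keratin transcripts made up a smaller share of the library wherever ipatasertib was present. They took 0.572%, 0.564% and 0.521% of gene counts in the ipatasertib libraries, 1.002%, 0.843% and 0.861% with tazemetostat, 0.590%, 0.472% and 0.570% with the combination, and 0.834%, 0.834% and 0.785% under DMSO. All ipatasertib and combination libraries lay below all DMSO libraries, and all tazemetostat libraries lay above them. The shares averaged 0.553% ± 0.0275 with ipatasertib, 0.902% ± 0.0870 with tazemetostat, 0.544% ± 0.0632 with the combination and 0.818% ± 0.0285 under DMSO (SD, n = 3). Tazemetostat A had the highest share of its group and combination B the lowest of its group, and without them the means were 0.852% and 0.580%. The make-up changed as well. Basal, stress and wound keratins together held 7.51% ± 0.0817 of keratin counts with ipatasertib, 16.6% ± 0.480 with tazemetostat, 5.23% ± 0.248 with the combination and 20.4% ± 0.186 under DMSO, with no overlap between any of the 4 groups. The hair keratin KRT81 alone held 41.4% ± 0.840, 46.5% ± 0.529 and 43.1% ± 0.705 of keratin counts in the 3 treated groups, against 37.8% ± 0.357 under DMSO. In bulk RNA, fewer cells of a type and less RNA per cell cannot be told apart.

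**Figure D1:**
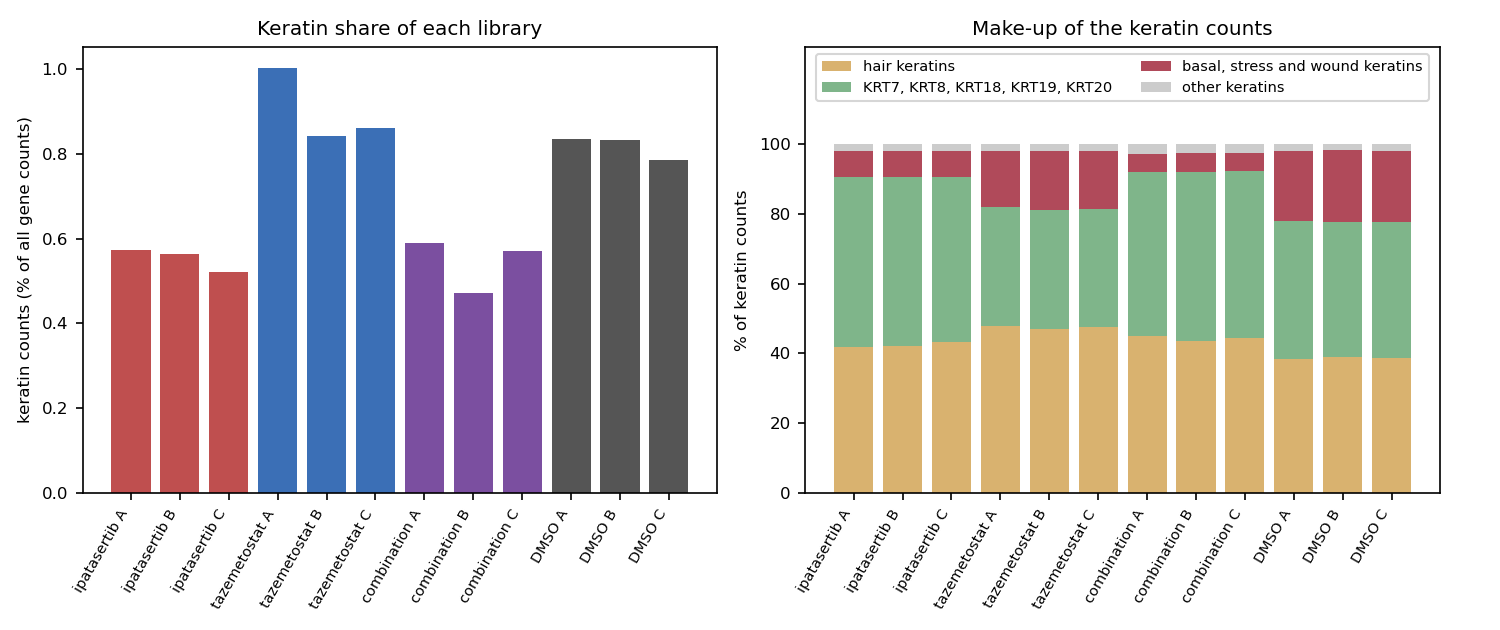
Keratin counts per library: left, as a percentage of all gene counts; right, the make-up of the keratin counts, in percent, by class. Bars stand for the 12 libraries; the red class (basal, stress and wound keratins) averaged 7.51% with ipatasertib and 5.23% with the combination, against 20.4% under DMSO.

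Across the 27 keratins tested, 20 fell and 1 rose with ipatasertib against DMSO, where 28.7% of all 14874 genes fell and 25.4% rose (edgeR quasi-likelihood test, Benjamini-Hochberg adjusted p under 0.05). The median log2 change of the keratins was -0.70, against -0.01 for all genes tested. With tazemetostat 7 rose and 5 fell, where 25.1% of all genes rose and 20.9% fell, and the keratin median was 0.09, against 0.02 for all genes. With the combination 18 fell and 3 rose, where 34.5% of all genes fell and 36.5% rose, with a keratin median of -0.70, against 0.02 for all genes. Falls of at least 2-fold were found for 12 keratins with ipatasertib and 12 with the combination, sizes reached by 2.1% and 5.11% of all genes. Some of the 27 passed the filter only through their DMSO and tazemetostat libraries, so these counts are shaped by the filter. Among the 14 keratins that averaged at least 10 CPM over all libraries, 14 fell with ipatasertib, 4 rose and 4 fell with tazemetostat, and 11 fell and 1 rose with the combination. The share called among all genes at that level is not given, so these counts have no matched background. Without tazemetostat A and combination B, 6 of the 27 rose and 9 fell with tazemetostat, where 29.3% and 28.6% of the 15002 genes then tested did. Groups whose libraries do not overlap are described below, and this was common among all genes. It held for 66.1% of the 14874 genes with ipatasertib against DMSO, 55.7% with tazemetostat and 71.9% with the combination. In the other comparisons of 2 groups it held for 46.8% to 63.8%.

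**Figure D2:**
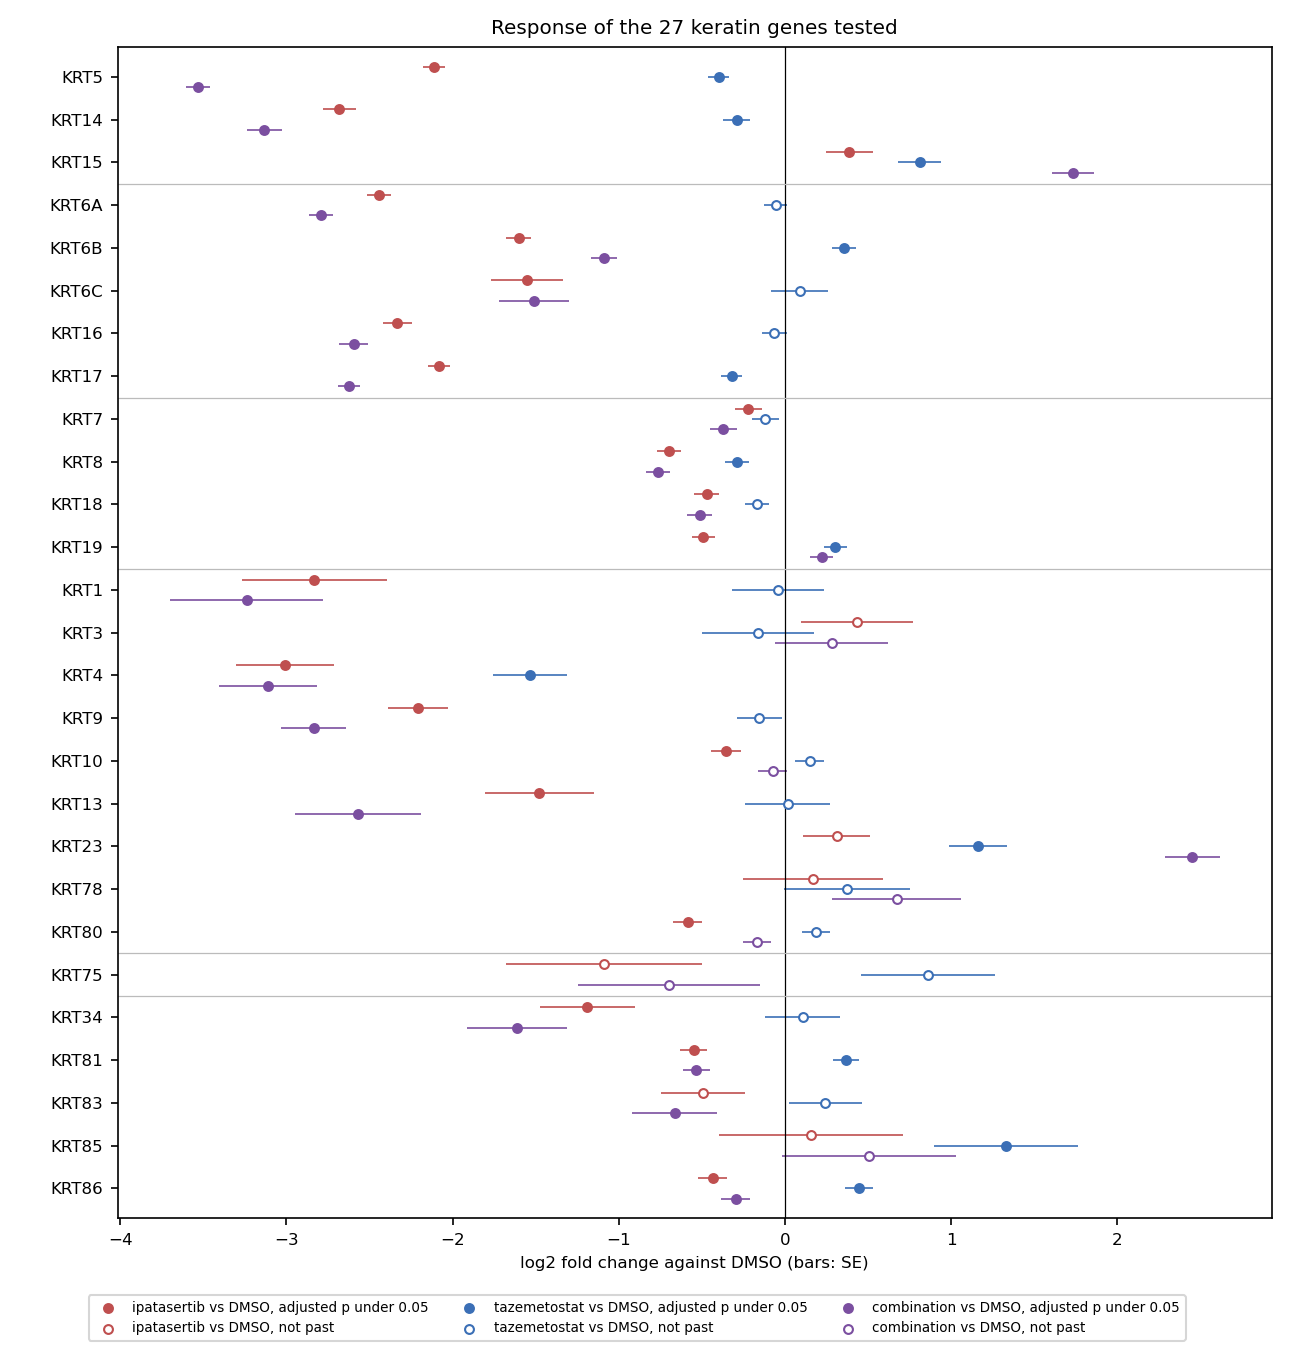
Log2 fold change against DMSO (x axis, bars are standard errors) of the 27 keratins tested, in order of class from basal at the top to hair keratins at the bottom; filled points passed the threshold. KRT5, at -3.53, was the lowest keratin in the combination, and KRT23, at 2.45, the highest.

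The basal layer keratins moved apart. KRT5, the type II keratin of basal cells, had 153, 146 and 140.5 CPM with ipatasertib, 519.9, 462 and 458 CPM with tazemetostat, 58.5, 50.2 and 55.1 CPM with the combination and 642, 646 and 609.6 CPM under DMSO. The 4 groups did not overlap, with the combination lowest and DMSO highest. Its log2 change was -2.11 (SE 0.07, adjusted p = 1.27e-14) with ipatasertib, -0.40 (SE 0.06, adjusted p = 4.58e-05) with tazemetostat and -3.53 (SE 0.07, adjusted p = 1.93e-18) with the combination, where only 7 of 14874 genes had a lower value. KRT14, its usual type I partner, had 3.29, 3.88 and 3.56 CPM with ipatasertib, 20.2, 18.6 and 17.1 CPM with tazemetostat, 2.83, 2.53 and 2.45 CPM with the combination and 22.9, 23.7 and 21.8 CPM under DMSO, and fell by 2.68 (SE 0.10, adjusted p = 7.14e-14), 0.29 (SE 0.08, adjusted p = 0.00638) and 3.13 (SE 0.10, adjusted p = 2.47e-15) on the log2 scale. The groups again lay in the order combination, ipatasertib, tazemetostat, DMSO from low to high, without overlap. KRT15, the other type I keratin of basal cells, went the other way, with 3.64, 4.11 and 3.48 CPM under ipatasertib, 5.22, 4.65 and 5.18 CPM under tazemetostat, 10.8, 7.96 and 9.80 CPM under the combination and 3.02, 2.65 and 2.88 CPM under DMSO. Every treated library lay above every DMSO library, and the combination was highest. KRT15 rose by 0.39 (SE 0.14, adjusted p = 0.0261) with ipatasertib, a call that was lost without DMSO B, without DMSO C or without ipatasertib B (log2 changes of 0.34, 0.39 and 0.32), by 0.81 (SE 0.13, adjusted p = 4.56e-05) with tazemetostat and by 1.74 (SE 0.13, adjusted p = 2.51e-10) with the combination.

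Set per kilobase of transcript, KRT15 reached 0.727 ± 0.0461 of the level of KRT14 with ipatasertib, 0.188 ± 0.0195 with tazemetostat, 2.54 ± 0.311 with the combination and 0.0870 ± 0.00821 under DMSO (SD, n = 3). With the transcript lengths used here, KRT15 was thus above KRT14 only in the combination, in each of its 3 libraries. These ratios used the shortest GENCODE principal transcript of KRT15, 2394 bases, a choice made after its listed lengths were seen. With the longest, 5237 bases, the mean ratios were 0.332, 0.0857, 1.16 and 0.0398 in the same order of groups. A level of KRT15 above KRT14 in each combination library is shown only for the length of 2394 bases. KRT5 stood far above either, with 27.1 ± 3.06 times the level of KRT14 per kilobase with ipatasertib, 16.9 ± 0.647 times with tazemetostat, 13.8 ± 0.883 times with the combination and 18.2 ± 0.296 times under DMSO. Of the 50-base windows of the transcript, 3.99% of KRT5, 0.725% of KRT15 and 23.8% of KRT14 also occur in another GENCODE gene, for KRT14 mostly in KRT16. Where reads that align to several genes are not counted, levels of the last are the less certain.

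Promoter sequences are shown for KRT5 and KRT9, which fell deeply with ipatasertib and the combination, and for KRT10, which changed little. Each is the stretch of 250 bases before the annotated start in RefSeq (GRCh38.p14), on the minus strand and read 5′ to 3′, at chr12:52520395-52520644 for KRT5, chr17:41572060-41572309 for KRT9 and chr17:40822615-40822864 for KRT10. Capitals mark ATAAN, a TATA-like match on the gene's own strand that begins 20 to 40 bases before the start, and, in KRT9 alone of these, GCCNNNGGC, a motif of the AP-2 factors searched on both strands.
KRT5: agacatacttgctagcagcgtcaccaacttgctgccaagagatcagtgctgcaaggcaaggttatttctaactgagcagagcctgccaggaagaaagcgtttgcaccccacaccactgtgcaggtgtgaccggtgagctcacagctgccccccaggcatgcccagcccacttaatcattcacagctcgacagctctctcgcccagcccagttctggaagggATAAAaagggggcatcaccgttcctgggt
KRT9: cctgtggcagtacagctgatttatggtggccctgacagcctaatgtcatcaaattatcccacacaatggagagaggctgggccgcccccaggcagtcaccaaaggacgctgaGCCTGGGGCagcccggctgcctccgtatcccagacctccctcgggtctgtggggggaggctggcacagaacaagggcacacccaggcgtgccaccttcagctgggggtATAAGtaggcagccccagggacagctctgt
KRT10: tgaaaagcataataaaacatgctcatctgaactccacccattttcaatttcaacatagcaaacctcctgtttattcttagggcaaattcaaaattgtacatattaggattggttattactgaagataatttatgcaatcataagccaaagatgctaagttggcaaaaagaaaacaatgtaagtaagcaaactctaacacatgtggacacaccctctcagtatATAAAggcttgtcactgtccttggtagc
The TATA-like match began 29 bases before the start in KRT5, 30 in KRT9 and 28 in KRT10, so it was present in genes with deep and with small changes. RefSeq promoters were matched for 34 of the 55 keratins, 9 of them tested. ATAAN in this window was found in 29 of the 34 (85.3%) and in 8 of the 9, KRT8 lacking it, against 8.76% of 27305 promoters. These letters and this window were chosen after the sequences had been seen and after other motifs had been counted over the whole stretch on both strands. TATAAA, which overlaps ATAAN, was found in 58.8% of keratin promoters and 11.1% of all promoters. CCAAT was found in 47.1% and 33.0%, GCCNNNGGC in 14.7% and 19.7%, and GGGCGG, the GC box, in 11.8% and 42.3%. TGANTCA, the AP-1 motif, and TGTTTAC, a FOXO motif, were in 0 of the 34 keratin stretches and in 6.60% and 2.98% of all. Keratin promoters had a median of 2 CG dinucleotides, against 11 for all. A match in these letters is a description and not a binding site.

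All 5 stress and wound keratins fell with ipatasertib and with the combination. KRT6A, a type II keratin induced in wounded epidermis, had 64.5, 66.3 and 58.5 CPM with ipatasertib, 355, 324 and 312 CPM with tazemetostat, 54.1, 45.8 and 48.7 CPM with the combination and 345, 356 and 328 CPM under DMSO. KRT16, its type I partner, had 10.7, 12.7 and 11.3 CPM with ipatasertib, 59.6, 54.1 and 53.1 CPM with tazemetostat, 10.6, 8.33 and 9.88 CPM with the combination and 56.6, 60.6 and 57.1 CPM under DMSO. For both genes the ipatasertib and combination libraries lay far below the others, while the tazemetostat and DMSO libraries overlapped. KRT6A changed by -2.44 (SE 0.07, adjusted p = 5.6e-15) with ipatasertib and -2.79 (SE 0.07, adjusted p = 8.9e-17) with the combination, and KRT16 by -2.33 (SE 0.09, adjusted p = 7.14e-14) and -2.60 (SE 0.09, adjusted p = 3.45e-15). With tazemetostat the values were -0.06 (SE 0.07, adjusted p = 0.527) and -0.06 (SE 0.08, adjusted p = 0.515), neither past the threshold. With tazemetostat A and combination B left out they became -0.13 (adjusted p = 0.0258) and -0.14 (adjusted p = 0.0384), both then called lower. KRT17, a type I keratin of wounds, skin appendages and basal-like tumours, had 145, 142 and 133 CPM with ipatasertib, 514, 456 and 453 CPM with tazemetostat, 104, 89.2 and 95.1 CPM with the combination and 590.5, 606 and 581 CPM under DMSO. It followed the order of KRT5, without overlap between groups, and changed by -2.08 (SE 0.07, adjusted p = 1.35e-14), -0.32 (SE 0.06, adjusted p = 0.000440) and -2.62 (SE 0.07, adjusted p = 7.34e-17) in the 3 comparisons with DMSO.

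KRT6B, a close copy of KRT6A, departed from it. KRT6B had 34.6, 38.1 and 32.0 CPM with ipatasertib, 148, 132 and 127 CPM with tazemetostat, 52.9, 45.2 and 51.5 CPM with the combination and 108, 105 and 105 CPM under DMSO. Tazemetostat libraries were the highest and ipatasertib libraries the lowest, with the combination between ipatasertib and DMSO. KRT6B fell by 1.60 (SE 0.08, adjusted p = 3.64e-12) with ipatasertib and by 1.09 (SE 0.08, adjusted p = 1.36e-10) with the combination, and rose by 0.36 (SE 0.07, adjusted p = 0.000579) with tazemetostat. Per kilobase, KRT6B stood at 0.559 ± 0.0198 of KRT6A with ipatasertib, 0.416 ± 0.00646 with tazemetostat, 1.02 ± 0.0438 with the combination and 0.313 ± 0.0127 under DMSO, with no overlap between groups. KRT6C, the third copy, had 1.10, 0.760 and 1.56 CPM with ipatasertib, 3.68, 3.19 and 3.67 CPM with tazemetostat, 1.54, 0.781 and 1.14 CPM with the combination and 3.61, 3.34 and 2.91 CPM under DMSO, and changed by -1.55 (SE 0.22, adjusted p = 5.66e-06), 0.09 (SE 0.17, adjusted p = 0.696) and -1.51 (SE 0.21, adjusted p = 3.04e-06). The ipatasertib and combination libraries of KRT6C overlapped each other and lay below the rest. Of the 50-base windows, 39.1% of KRT6A, 47.1% of KRT6B and 53.6% of KRT6C occur in another gene, mostly in each other, and 22.0% of KRT16 and 17.4% of KRT17 occur in another gene, most often in their pseudogenes, so that the split of reads among these genes is uncertain.

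**Figure D3:**
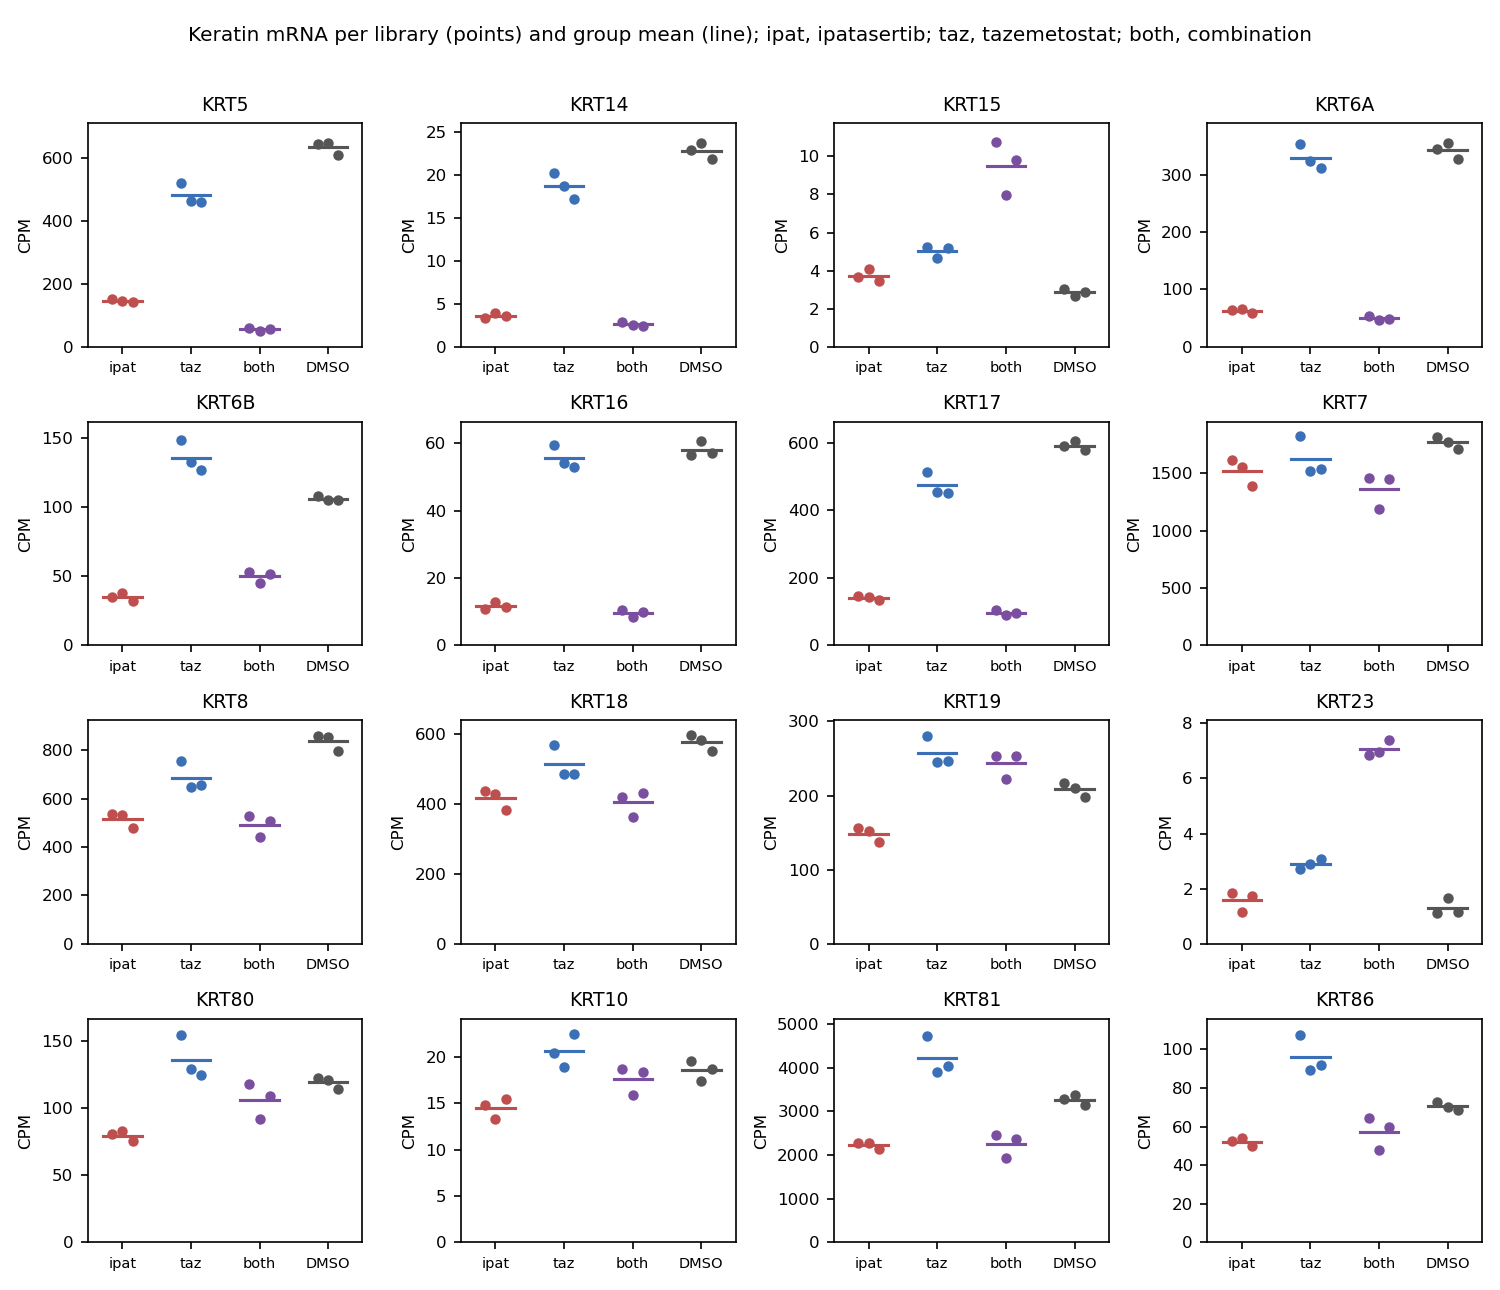
CPM of 16 keratins in each library (points) with the group mean (line); the y axis starts at 0 and differs between panels. KRT5, KRT14, KRT6A, KRT16 and KRT17 are low in the ipatasertib and combination columns, KRT15 and KRT23 are highest in the combination, and KRT19 is lowest with ipatasertib alone.

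The keratins of simple epithelia changed less. KRT8, the main type II keratin of luminal cells, had 538, 533 and 479.6 CPM with ipatasertib, 756, 649 and 656 CPM with tazemetostat, 528, 444 and 508 CPM with the combination and 859.5, 856 and 797 CPM under DMSO. KRT18, its type I partner, had 436, 429 and 383 CPM with ipatasertib, 570.1, 485 and 486 CPM with tazemetostat, 420.0, 364 and 430.2 CPM with the combination and 597, 582 and 552 CPM under DMSO. All ipatasertib and combination libraries of both genes lay below all tazemetostat and DMSO libraries. KRT8 fell by 0.70 (SE 0.07, adjusted p = 1.38e-07) with ipatasertib, by 0.29 (SE 0.07, adjusted p = 0.00311) with tazemetostat and by 0.76 (SE 0.07, adjusted p = 1.21e-08) with the combination, and KRT18 by 0.47 (SE 0.07, adjusted p = 2.36e-05) with ipatasertib and by 0.51 (SE 0.07, adjusted p = 4.31e-06) with the combination. With tazemetostat KRT18 had -0.17 (SE 0.07, adjusted p = 0.0708), and -0.27 (adjusted p = 1.79e-05) with tazemetostat A and combination B left out. Of their 50-base windows, 39.7% and 52.5% occur in other genes.

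KRT7, a type II keratin of glandular epithelium, had 1616, 1558 and 1386 CPM with ipatasertib, 1826, 1525 and 1539 CPM with tazemetostat, 1464, 1186 and 1455 CPM with the combination and 1819, 1777 and 1714 CPM under DMSO. The ipatasertib and combination libraries lay below the DMSO libraries, and the tazemetostat libraries overlapped them. It changed by -0.22 (SE 0.08, adjusted p = 0.0281) with ipatasertib and -0.37 (SE 0.08, adjusted p = 0.000429) with the combination, the smallest of the keratin falls called with ipatasertib, and the first was not past the threshold under scaling by total counts (-0.10, adjusted p = 0.297), nor without DMSO A, DMSO B, ipatasertib B or ipatasertib C (-0.17, -0.21, -0.24 and -0.13, with adjusted p of 0.149, 0.0793, 0.0536 and 0.244). With tazemetostat the value was -0.12 (SE 0.08, adjusted p = 0.243), and -0.23 (adjusted p = 1.57e-04) with tazemetostat A and combination B left out. An antisense gene, KRT7-AS, overlaps KRT7, and with the strand setting not given its reads cannot be told apart. Since KRT5 fell far more, KRT7 stood at 14.97 ± 0.635 times the level of KRT5 per kilobase with ipatasertib, 4.89 ± 0.157 times with tazemetostat, 36.1 ± 2.02 times with the combination and 4.04 ± 0.0603 times under DMSO.

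KRT19, a type I keratin of simple and luminal epithelium, differed in direction between the treatments. It had 156, 152 and 138 CPM with ipatasertib, 280.0, 246 and 247 CPM with tazemetostat, 254, 223 and 253 CPM with the combination and 218, 209.8 and 198 CPM under DMSO. Ipatasertib libraries were lowest, and all tazemetostat and combination libraries lay above all DMSO libraries. KRT19 fell by 0.49 (SE 0.07, adjusted p = 7.37e-06) with ipatasertib, and rose by 0.30 (SE 0.07, adjusted p = 0.00140) with tazemetostat and by 0.22 (SE 0.07, adjusted p = 0.00747) with the combination. Per kilobase it reached 0.365 ± 0.00229 of KRT18 with ipatasertib, 0.513 ± 0.00986 with tazemetostat, 0.615 ± 0.0122 with the combination and 0.369 ± 0.00268 under DMSO. KRT20, the remaining keratin of this class, a marker of gut and urothelium, was below the filter with 27 counts over the 12 libraries.

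KRT23, a type I keratin described in cancers of the pancreas and colon, rose more than any other keratin tested in the combination. It had 1.86, 1.14 and 1.74 CPM with ipatasertib, 2.70, 2.88 and 3.09 CPM with tazemetostat, 6.84, 6.96 and 7.41 CPM with the combination and 1.10, 1.65 and 1.14 CPM under DMSO. The combination libraries lay above all others and the tazemetostat libraries above those of ipatasertib and DMSO, which overlapped. KRT23 rose by 1.17 (SE 0.17, adjusted p = 2.36e-05) with tazemetostat and by 2.45 (SE 0.16, adjusted p = 7.79e-11) with the combination, and stood at 0.31 (SE 0.20, adjusted p = 0.208) with ipatasertib, not past the threshold. KRT80, a type II keratin found in many epithelia, had 80.5, 82.8 and 75.4 CPM with ipatasertib, 155, 129.5 and 124 CPM with tazemetostat, 118, 92.2 and 109 CPM with the combination and 123, 121 and 114 CPM under DMSO. KRT80 fell with ipatasertib, whose libraries lay below all others, by 0.59 (SE 0.09, adjusted p = 1.03e-05), and had 0.19 (SE 0.08, adjusted p = 0.0720) with tazemetostat and -0.17 (SE 0.08, adjusted p = 0.0854) with the combination. The value with tazemetostat was 0.07 without tazemetostat A and combination B. It was called higher under scaling by total counts alone (0.26, adjusted p = 0.0180). It was also called higher with no filter, with the replicate block and with only the 2 groups compared, at 0.18, 0.19 and 0.18. The value with the combination was called lower without combination A, at -0.26 (adjusted p = 0.0114). It was also called lower with no filter and with the replicate block, at -0.18 and -0.17. KRT10, a type I keratin of differentiating epidermis, had 14.9, 13.3 and 15.4 CPM with ipatasertib, 20.5, 18.9 and 22.5 CPM with tazemetostat, 18.7, 15.9 and 18.4 CPM with the combination and 19.6, 17.4 and 18.8 CPM under DMSO. KRT10 fell by 0.36 (SE 0.09, adjusted p = 0.00259) with ipatasertib, whose libraries again lay below those of DMSO, and had 0.15 (SE 0.09, adjusted p = 0.164) and -0.07 (SE 0.09, adjusted p = 0.467) in the other comparisons with DMSO.

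Keratins at a few CPM or less included some of the deepest falls. Of those named here, KRT1 and KRT4 passed the filter through their DMSO and tazemetostat libraries, where they were higher. Their falls with ipatasertib and the combination are therefore shaped by the filter. KRT9, a type I keratin of palm and sole epidermis, had 0.953, 0.988 and 1.39 CPM with ipatasertib, 4.36, 4.40 and 4.76 CPM with tazemetostat, 0.967, 0.446 and 0.681 CPM with the combination and 5.04, 5.41 and 4.58 CPM under DMSO. KRT1, the type II keratin of differentiating epidermis, had 0.201, 0.0380 and 0.174 CPM with ipatasertib, 1.12, 0.954 and 1.004 CPM with tazemetostat, 0.0358, 0.0372 and 0.218 CPM with the combination and 1.03, 0.782 and 1.37 CPM under DMSO. For both genes the ipatasertib and combination libraries lay below all others, and for KRT1 they rest on 13 and 10 counts per group, against 112 under DMSO. KRT9 changed by -2.21 (SE 0.18, adjusted p = 5.21e-09) with ipatasertib and -2.84 (SE 0.19, adjusted p = 1.01e-10) with the combination, and KRT1 by -2.83 (SE 0.44, adjusted p = 1.87e-05) and -3.24 (SE 0.46, adjusted p = 3.29e-06); with tazemetostat the values were -0.15 (SE 0.14, adjusted p = 0.375) and -0.04 (SE 0.28, adjusted p = 0.912). KRT4, a type II keratin of internal stratified epithelia, had 0.276, 0.152 and 0.304 CPM with ipatasertib, 0.536, 0.605 and 0.903 CPM with tazemetostat, 0.215, 0.186 and 0.272 CPM with the combination and 2.25, 1.89 and 1.83 CPM under DMSO. It was the keratin with the deepest fall in tazemetostat, whose libraries lay below those of DMSO and above those of ipatasertib and the combination. KRT4 fell by 3.01 (SE 0.30, adjusted p = 6.61e-08), 1.54 (SE 0.22, adjusted p = 1.48e-05) and 3.11 (SE 0.30, adjusted p = 1.36e-08) with ipatasertib, tazemetostat and the combination. KRT13, the type I partner of KRT4, had 0.301, 0.570 and 0.521 CPM with ipatasertib, 1.35, 1.19 and 1.23 CPM with tazemetostat, 0.179, 0.0372 and 0.354 CPM with the combination and 1.08, 1.17 and 1.504 CPM under DMSO. Unlike KRT4 it did not pass the threshold with tazemetostat, at 0.02 (SE 0.25, adjusted p = 0.964), and changed by -1.48 (SE 0.33, adjusted p = 0.000790) with ipatasertib and by -2.57 (SE 0.38, adjusted p = 5.36e-06) with the combination. The difference between KRT4 and KRT13 was not tested. None of the 50-base windows of KRT9, KRT1 and KRT4 occurs in another gene, against 18.4% of those of KRT13.

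The hair keratins were led by KRT81, the keratin with the highest level per kilobase in every group. KRT81, a type II keratin, had 2281, 2271 and 2145 CPM with ipatasertib, 4728, 3907 and 4025 CPM with tazemetostat, 2466, 1933 and 2375 CPM with the combination and 3291, 3365 and 3142 CPM under DMSO. KRT86, a close copy of it, had 52.4, 54.1 and 49.98 CPM with ipatasertib, 107, 89.1 and 91.9 CPM with tazemetostat, 64.3, 48.1 and 59.8 CPM with the combination and 72.9, 70.0 and 68.6 CPM under DMSO. For both, tazemetostat libraries lay above DMSO libraries, and those of ipatasertib and the combination below. KRT81 fell by 0.55 (SE 0.08, adjusted p = 8.72e-06) with ipatasertib and by 0.53 (SE 0.08, adjusted p = 6e-06) with the combination, and rose by 0.37 (SE 0.08, adjusted p = 0.000873) with tazemetostat. KRT86 fell by 0.43 (SE 0.09, adjusted p = 0.000349) with ipatasertib and rose by 0.45 (SE 0.09, adjusted p = 0.000339) with tazemetostat. In the combination KRT86 had -0.30 (SE 0.09, adjusted p = 0.00531), a call lost with scaling by total counts alone (-0.16, adjusted p = 0.117), and -0.17 without combination B. The rise of KRT81 with tazemetostat was 0.24 without tazemetostat A. Of the windows of these genes, 44.6% and 39.2% occur in another gene, mostly in each other. KRT34, a type I hair keratin, had 0.502, 0.608 and 0.304 CPM with ipatasertib, 1.23, 1.14 and 1.18 CPM with tazemetostat, 0.179, 0.372 and 0.490 CPM with the combination and 1.03, 1.20 and 1.08 CPM under DMSO, and changed by -1.19 (SE 0.29, adjusted p = 0.00154), 0.11 (SE 0.23, adjusted p = 0.727) and -1.61 (SE 0.30, adjusted p = 8.28e-05). Its ipatasertib and combination libraries lay below all others.

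The other 5 keratins tested, KRT3, KRT75, KRT78, KRT83 and KRT85, averaged between 0.192 and 1.39 CPM over the libraries. Of these, KRT85, a type II hair keratin, passed the threshold with tazemetostat, at 1.33 (SE 0.43, adjusted p = 0.0170), with 0.512, 0.488 and 0.241 CPM under tazemetostat, against 0.141, 0.120 and 0.229 CPM under DMSO. KRT83, another hair keratin, passed it with the combination, at -0.66 (SE 0.26, adjusted p = 0.0273), with 0.859, 0.856 and 1.23 CPM under the combination, against 1.29, 1.62 and 1.896 CPM under DMSO. Both rest on few counts. KRT85 had 22, 21 and 12 counts with tazemetostat, against 6, 4 and 7 under DMSO. It passed the filter through libraries where it was high, so its rise is shaped by the filter. Of the 28 keratins below the filter, KRT25, KRT26, KRT27, KRT28, KRT33A, KRT35, KRT36, KRT72, KRT73 and KRT76 had 0 counts in every library, 6 of them type I or type II keratins of the inner root sheath of the hair. The other 18 had 1 to 58 counts over the 12 libraries, led by KRT79 with 58.

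Ordered by level per kilobase, KRT81 was highest and KRT7 next in every group. KRT81 had 1157 ± 39.3 CPM per kilobase with ipatasertib, 2188 ± 230 with tazemetostat, 1171 ± 148 with the combination and 1693 ± 58.9 under DMSO. KRT7 had 867 ± 68.2, 929 ± 96.9, 780.1 ± 90.1 and 1009 ± 30.1 CPM per kilobase in the same order of groups. KRT8 and KRT18 followed in every group, and their levels per kilobase lay within 1 SD of each other in all 3 treated groups. Under DMSO they were further apart, at 477 ± 20.1 and 406 ± 16.1. KRT5 held rank 7 with ipatasertib, at 57.9 ± 2.41 CPM per kilobase, rank 6 with tazemetostat, at 189.6 ± 13.7, rank 10 with the combination, at 21.6 ± 1.64, and rank 6 under DMSO, at 249.9 ± 7.84. In the combination it lay beside KRT6B at 21.9 ± 1.80 and KRT6A at 21.5 ± 1.82, from which it did not differ beyond the spread between libraries.

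The combination was also set against each inhibitor alone. Against ipatasertib, 6 keratins rose and 5 fell, where 21.8% of all genes rose and 17.3% fell. The type I keratins KRT15 and KRT23 rose by 1.35 (SE 0.13, adjusted p = 4.52e-08) and 2.14 (SE 0.16, adjusted p = 3.04e-09), KRT19 by 0.71 (SE 0.07), KRT6B by 0.52 (SE 0.08), KRT80 by 0.42 (SE 0.09) and KRT10 by 0.28 (SE 0.09). KRT5 changed by -1.42 (SE 0.07, adjusted p = 2.46e-12), the only keratin to fall at least 2-fold here, a size reached by 0.867% of all genes. KRT17, KRT14, KRT6A and KRT16 fell by 0.54 (SE 0.07, adjusted p = 1.72e-06), 0.45 (SE 0.13, adjusted p = 0.00866), 0.35 (SE 0.07, adjusted p = 0.000699) and 0.26 (SE 0.10, adjusted p = 0.0375). The calls of KRT10 and KRT16 were each lost in at least 4 of the alternatives run. KRT81, KRT8 and KRT18 differed by 0.02 (SE 0.08), -0.07 (SE 0.07) and -0.04 (SE 0.07), none past the threshold. With tazemetostat A and combination B left out KRT81 and KRT86 were called higher, at 0.11 (adjusted p = 0.0305) and 0.24 (adjusted p = 0.000330), and the call of KRT16 was lost, at -0.18 (adjusted p = 0.0908). Against tazemetostat, 21 keratins were lower in the combination and 2 were higher, where 30.8% and 29.8% of all genes were. The 2 were again KRT15, at 0.92 (SE 0.11), and KRT23, at 1.29 (SE 0.14). With both libraries left out 17 were lower, a count for which the share of all genes is not given. KRT7, KRT10 and KRT80 then lost their calls, at -0.03, -0.12 and -0.12 (adjusted p of 0.658, 0.215 and 0.0503). With all libraries they had -0.25, -0.22 and -0.36. Ipatasertib was set against tazemetostat as well: 24 keratins were lower with ipatasertib and 0 were higher, where 31.7% and 24.6% of all genes were. At an unadjusted p under 0.05 in edgeR 0 keratins were higher, and DESeq2 called 0 higher. Some keratins passed the filter through libraries where they were high, among them those of tazemetostat. The counts of ipatasertib and of the combination against tazemetostat are therefore shaped by the filter. KRT75, for example, had 13, 13 and 23 counts with tazemetostat, against 1, 4 and 3 with ipatasertib.

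The interaction asks whether the effect of ipatasertib differed with and without tazemetostat, on the log2 scale. It passed the threshold for 3 keratins, 2 above 0 and 1 below, where 1.87% and 1.75% of all genes did. KRT5 changed with ipatasertib by -3.13 (SE 0.07) in tazemetostat-treated cells, against -2.11 (SE 0.07) in cells without tazemetostat, a difference of -1.02 (SE 0.09, adjusted p = 1.77e-06). This call held under all 19 alternatives, with values between -1.07 and -0.89. KRT19 had -0.08 (SE 0.07) with tazemetostat, against -0.49 (SE 0.07) without it, a difference of 0.41 (SE 0.10, adjusted p = 0.0232). KRT23 had 1.29 (SE 0.14) with tazemetostat, against 0.31 (SE 0.20) without it, a difference of 0.98 (SE 0.25, adjusted p = 0.0313). The calls of KRT19 and KRT23 were lost when single libraries were left out, with adjusted p reaching 0.0831 without combination C and 0.140 without DMSO B. The call of KRT19 was also lost without DMSO A, DMSO B, ipatasertib B, ipatasertib C, tazemetostat B or tazemetostat C, and that of KRT23 without ipatasertib B, ipatasertib C, tazemetostat B or combination C. Without tazemetostat A and combination B, 7 keratins had an interaction above 0 and 1 below, with KRT15, KRT18, KRT6B, KRT8 and KRT80 added at 0.69, 0.30, 0.31, 0.38 and 0.44. In that fit 17.1% of all genes lay above 0 and 14.7% below. The interaction was -0.16 (SE 0.15, adjusted p = 0.617) for KRT14 and -0.30 (SE 0.10, adjusted p = 0.103) for KRT6A, not past the threshold, and whether these differ from the interaction of KRT5 was not tested. KRT6A was called below 0 under scaling by total counts alone (-0.35, adjusted p = 0.0499) and with no filter (-0.33, adjusted p = 0.0307). KRT81, not past the threshold in the fit reported, was called below 0 with no filter (-0.39, adjusted p = 0.00457). It was also called under scaling by total counts, with DESeq2, with the replicate block and without combination A, at -0.40, -0.36, -0.35 and -0.41. Without tazemetostat A and combination B it had -0.15 (adjusted p = 0.0634).

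**Figure D4:**
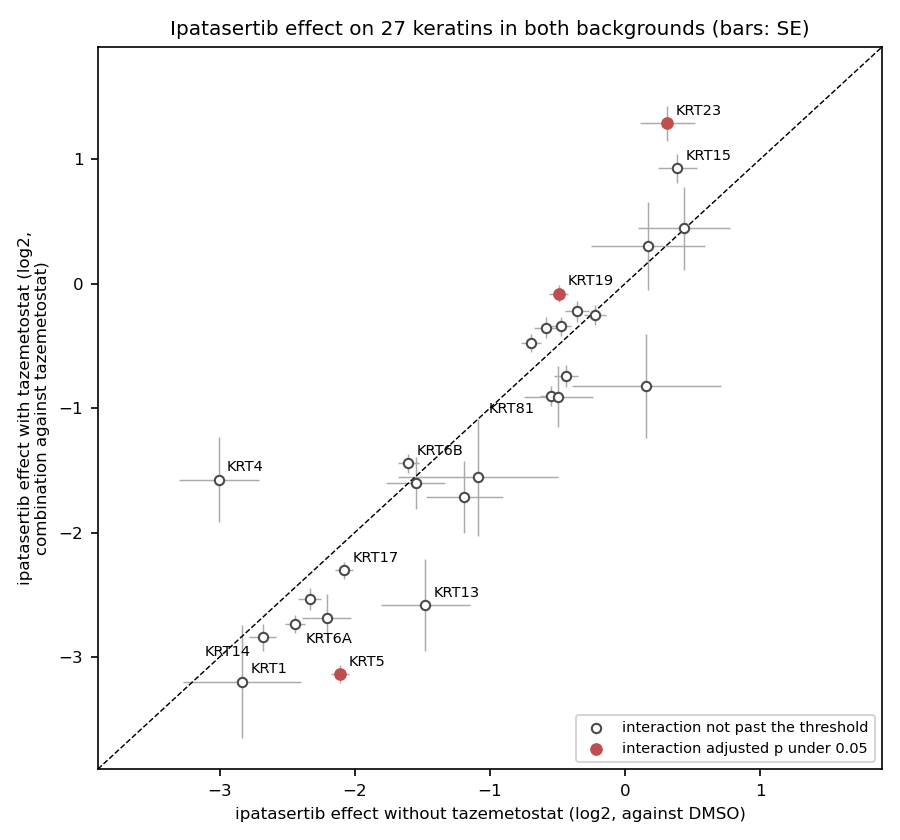
Log2 effect of ipatasertib on each of the 27 keratins tested, in tazemetostat-treated cells (y axis, combination against tazemetostat) and in cells without tazemetostat (x axis, ipatasertib against DMSO), with standard errors; the dashed line marks equal effects. KRT5 lies below the line by 1.02 and KRT19 and KRT23 above it by 0.41 and 0.98.

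Some of the keratins with deep falls lie side by side, and others lie apart. In the gene order of RefSeq (GRCh38.p14), the type II keratins and KRT18 lie on chromosome 12 and the other type I keratins on chromosome 17. On chromosome 12, KRT6B, KRT6C, KRT6A and KRT5 are neighbours among the keratins, and their log2 changes in the combination were -1.09, -1.51, -2.79 and -3.53. KRT71, KRT74, KRT72, KRT73 and KRT2, which follow KRT5, were below the filter. KRT1 and KRT4, which lie further on, had -3.24 and -3.11, and KRT3, directly before KRT4, had 0.28. On chromosome 17, KRT9, KRT14, KRT16 and KRT17 are neighbours, with -2.84, -3.13, -2.60 and -2.62, while KRT15 and KRT19, which come directly before KRT9, had 1.74 and 0.22. KRT13, directly before KRT15, had -2.57. Coordinates are not given for these counts, since the genome build of the files is another.

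**Figure D5:**
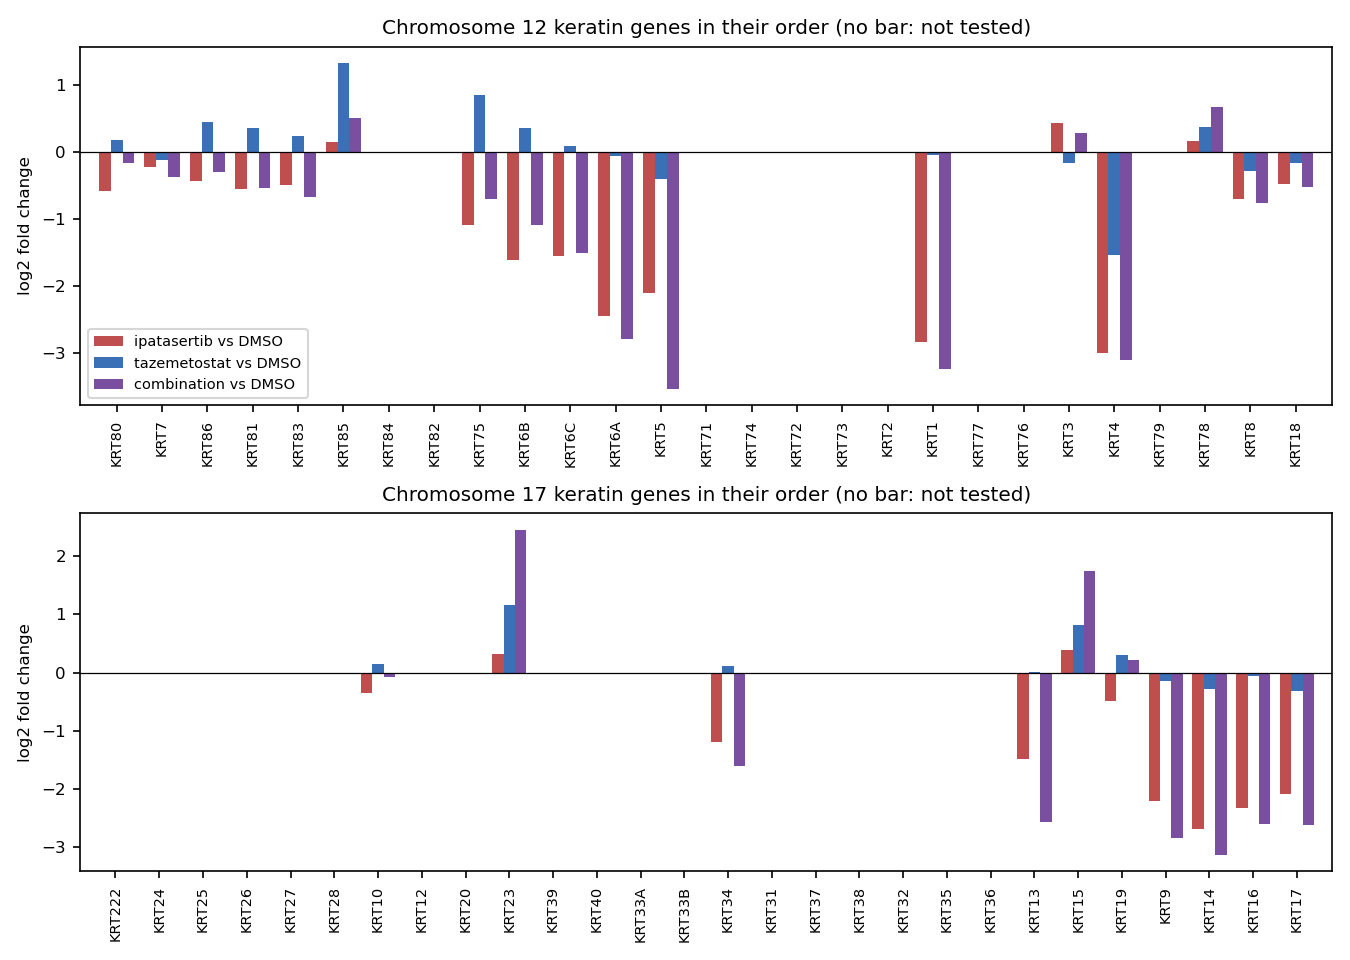
Log2 fold change against DMSO of keratins in their order along chromosome 12 (top) and chromosome 17 (bottom); genes without bars were not tested. KRT6B to KRT5 and KRT9 to KRT17 fell with ipatasertib and with the combination, and KRT15, which is separated from KRT9 by KRT19, rose. KRT1, KRT4 and KRT13, outside these runs, fell as well.

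Genes that act with keratins were described as lists. Of 24 transcription factors that act on keratin genes, all tested, 7 rose and 9 fell with ipatasertib, 11 rose and 2 fell with tazemetostat, and 11 rose and 4 fell with the combination. Of all genes 25.4% rose and 28.7% fell with ipatasertib, 25.1% rose and 20.9% fell with tazemetostat, and 36.5% rose and 34.5% fell with the combination. The list had median log2 changes of -0.11, 0.14 and 0.22, against -0.01, 0.02 and 0.02 for all genes. TP63, the master factor of basal epithelium and an activator of KRT5 and KRT14, had 27.7, 24.5 and 26.1 CPM with ipatasertib, 25.1, 30.3 and 28.2 CPM with tazemetostat, 26.9, 30.4 and 24.4 CPM with the combination and 13.8, 15.3 and 18.4 CPM under DMSO. All treated libraries of TP63 lay above all DMSO libraries, with changes of 0.73 (SE 0.10, adjusted p = 8.49e-06), 0.82 (SE 0.10, adjusted p = 2.51e-06) and 0.78 (SE 0.10, adjusted p = 1.44e-06), opposite in sign to those of KRT5 and KRT14. ZNF750, a factor of epidermal differentiation, fell by 1.94 (SE 0.40, adjusted p = 0.000390) with ipatasertib and by 3.05 (SE 0.47, adjusted p = 8.46e-06) with the combination, at under 1 CPM in every library. FOSL1, an AP-1 subunit, fell by 1.34 (SE 0.08, adjusted p = 1.15e-10) with ipatasertib and by 1.07 (SE 0.08, adjusted p = 5.72e-10) with the combination. ELF3, an epithelial ETS factor, rose by 0.99 (SE 0.08, adjusted p = 4.26e-09), 0.51 (SE 0.08, adjusted p = 3.42e-05) and 2.19 (SE 0.08, adjusted p = 7.57e-15) in the 3 comparisons. OVOL1 and KLF4, zinc-finger factors of epithelial differentiation, rose by 1.51 (SE 0.13) and 1.30 (SE 0.14) with tazemetostat and by 2.04 (SE 0.13) and 1.72 (SE 0.14) with the combination, and were not past the threshold with ipatasertib, at -0.33 (SE 0.16) and -0.19 (SE 0.18). OVOL1 was called lower with ipatasertib when tazemetostat A and combination B were left out, at -0.30 (adjusted p = 0.0185). GRHL3, a grainyhead factor, fell by 1.54 (SE 0.44, adjusted p = 0.00575) with ipatasertib, rose by 1.21 (SE 0.29) with tazemetostat and had 0.53 (SE 0.33) with the combination, not past the threshold. Without DMSO C the value of GRHL3 in the combination was 1.07 (adjusted p = 0.00533), called higher, and that with ipatasertib -0.99 (adjusted p = 0.0514), no longer called.

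Of 16 desmosome and plakin genes, which tie keratin filaments to cell junctions, 14 were tested. With ipatasertib 2 rose and 7 fell, with tazemetostat 1 rose and 7 fell, and with the combination 2 rose and 6 fell. In the same comparisons 25.4%, 25.1% and 36.5% of all genes rose and 28.7%, 20.9% and 34.5% fell, and the medians of the list were -0.28, -0.18 and -0.10. PKP1, a plakophilin of stratified epithelia, had 52.2, 54.4 and 51.9 CPM with ipatasertib, 96.7, 93.6 and 88.8 CPM with tazemetostat, 51.2, 36.8 and 43.5 CPM with the combination and 115, 112 and 104 CPM under DMSO. PPL, the plakin periplakin, had 52.2, 52.0 and 56.8 CPM with ipatasertib, 38.0, 38.1 and 38.5 CPM with tazemetostat, 96.0, 82.5 and 95.3 CPM with the combination and 28.5, 33.0 and 29.2 CPM under DMSO. The groups did not overlap for either gene. PKP1 fell by 1.06 (SE 0.08, adjusted p = 3.72e-09), 0.25 (SE 0.08, adjusted p = 0.0192) and 1.33 (SE 0.09, adjusted p = 3.9e-11), while PPL rose by 0.83 (SE 0.07, adjusted p = 1.94e-08), 0.34 (SE 0.07, adjusted p = 0.00101) and 1.59 (SE 0.07, adjusted p = 2.75e-13) in the 3 comparisons with DMSO. The tazemetostat call of PKP1 was lost under scaling by total counts (-0.18, adjusted p = 0.0932) and without DMSO A or tazemetostat C (adjusted p of 0.0661 and 0.0517).

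Other intermediate filament genes were tested for 11 of 15, of which 2 rose and 5 fell with ipatasertib, 5 rose and 2 fell with tazemetostat, and 5 rose and 4 fell with the combination. The shares of all genes were 25.4%, 25.1% and 36.5% higher and 28.7%, 20.9% and 34.5% lower, and the medians of the list were -0.31, 0.31 and -0.05. VIM, vimentin, the filament of mesenchymal cells, had 744, 726 and 655 CPM with ipatasertib, 504, 493 and 511 CPM with tazemetostat, 326, 380.5 and 349 CPM with the combination and 1103, 1038 and 1047 CPM under DMSO. The groups did not overlap, and VIM fell by 0.58 (SE 0.06, adjusted p = 1.93e-07), 1.08 (SE 0.06, adjusted p = 5.62e-11) and 1.59 (SE 0.06, adjusted p = 3.38e-14). NES, nestin, rose by 3.14 (SE 0.21, adjusted p = 4.39e-10) with tazemetostat and by 2.46 (SE 0.23, adjusted p = 9.58e-09) with the combination, and had -0.65 (SE 0.35, adjusted p = 0.124) with ipatasertib, not past the threshold. NEFL, a neurofilament, fell by 1.15 (SE 0.07, adjusted p = 4.26e-11) with ipatasertib and by 0.96 (SE 0.07, adjusted p = 1.05e-10) with the combination, and rose by 0.31 (SE 0.06) with tazemetostat. LMNB2, a nuclear lamin, fell by 0.78 (SE 0.09, adjusted p = 3.86e-07), 0.23 (SE 0.09, adjusted p = 0.0365) and 1.30 (SE 0.09, adjusted p = 1.01e-10). Its tazemetostat call was lost under scaling by total counts (-0.16, adjusted p = 0.149) and without DMSO A, DMSO B, tazemetostat B or tazemetostat C (adjusted p of 0.113, 0.0511, 0.0902 and 0.0860). BFSP1, a lens filament protein, rose by 1.10 (SE 0.13) with ipatasertib and by 1.37 (SE 0.13) with the combination, and PRPH, peripherin, by 1.03 (SE 0.33) with the combination, a call lost without combination C (0.86, adjusted p = 0.0567).

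Of 9 genes of keratin turnover, modification and binding, 1 rose and 6 fell with ipatasertib, 1 rose and 1 fell with tazemetostat, and 1 rose and 8 fell with the combination. Over all genes the shares were 25.4%, 25.1% and 36.5% higher and 28.7%, 20.9% and 34.5% lower, and the medians of the list were -0.26, -0.13 and -0.43. The 1 that rose was in each case KLHL24, an adaptor of a ubiquitin ligase known to target KRT14. KLHL24 had 92.0, 93.3 and 92.0 CPM with ipatasertib, 19.4, 24.0 and 25.6 CPM with tazemetostat, 132, 146 and 137 CPM with the combination and 13.1, 13.8 and 15.7 CPM under DMSO, and changes of 2.71 (SE 0.09), 0.70 (SE 0.09) and 3.29 (SE 0.09). Its groups did not overlap, and their order was that of KRT5 and KRT14 turned round. SFN, a 14-3-3 protein that binds keratins, had 152, 152 and 144 CPM with ipatasertib, 508, 408 and 410.4 CPM with tazemetostat, 165, 131 and 152 CPM with the combination and 399.6, 397 and 389.7 CPM under DMSO. SFN fell by 1.40 (SE 0.08, adjusted p = 6.25e-11) with ipatasertib and by 1.41 (SE 0.08, adjusted p = 1.19e-11) with the combination, whose libraries lay below all others, and had 0.16 (SE 0.08, adjusted p = 0.112) with tazemetostat.

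The genes outside the family whose levels were most like those of KRT5 were sought among those averaging at least 10 CPM, by Pearson's r of log2 (CPM + 0.5) over the 12 libraries. They were TUBB with r of 0.998, MLLT11 and IPO9 with 0.997, TUBA4A and BIRC5 with 0.996, HN1 and ZNF462 with 0.995, and TOE1, CDCA5 and RFWD3 with 0.994. Points in 1 group share its treatment, so r mainly describes how the levels of the groups are spaced on the log2 scale. The changes of these genes were smaller than that of KRT5, with TUBB, a tubulin, at -0.59, -0.13 and -1.01 with ipatasertib, tazemetostat and the combination. Within the family, r with KRT5 was 0.982 for KRT17, 0.966 for KRT9 and KRT14, 0.794 for KRT6B, 0.114 for KRT19, -0.704 for KRT23 and -0.761 for KRT15.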

How the data were processed

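Polyadenylated RNA of 12 libraries was sequenced from Kapa Hyper Prep libraries, per the labels. The authors deposited raw counts per gene. STAR, SAMtools, HTSeq and DESeq2 with the build hg19 are named in the submitters' processing notes, and no source used here gives their versions, the annotation or the strand setting. The 5 summary lines that name no gene, 29.8% to 38.6% of a library, were left out. The authors' normalised table was not used.

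Counts were analysed in R 4.3.3 with edgeR 4.0.16: filterByExpr, TMM factors, 1 quasi-likelihood fit over all 12 libraries with 1 coefficient per group and no block (common biological coefficient of variation 0.0645), and Benjamini-Hochberg adjustment over 14874 genes at 0.05. Standard errors are the log2 change over the square root of F. The interaction is the log2 change of the combination against tazemetostat minus that of ipatasertib against DMSO. The script was tested on simulated data. Intervals and limits from counts cover counting error only.

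Levels per kilobase used GENCODE 29 principal transcripts, and shared sequence was counted in windows of 50 bases on both strands. The members, gene lists and comparisons were chosen with earlier results of these data known. Values per library are given for keratins averaging at least 10 CPM, or past the threshold with a 2-fold change against DMSO and at least 1 CPM in 1 group. Of each partner list at most 6 genes, past the threshold and 2-fold, are named, besides TP63, VIM and KLHL24. Alternatives were other scalings, no filter, DESeq2 1.42.0, a block for the replicate letters, pairs of groups alone and left-out libraries.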

Additional observations from a re-analysis of the deposited data

Results flagged for a closer look

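Results whose ipatasertib effect differed with and without tazemetostat, by the interaction in the edgeR fit, were those of 3 keratins. The difference was -1.02 for KRT5 on the log2 scale, where the fall was larger with tazemetostat, 0.41 for KRT19 and 0.98 for KRT23. KRT5 was lower with ipatasertib in 3 of 3 libraries in both settings. KRT23 passed the threshold in tazemetostat-treated cells alone, and the test of the difference is the interaction itself (adjusted p = 0.0313). Groups of 3 libraries are too small for a test of single outlying libraries.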

How the results depend on the processing

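Over 273 results of single genes and 4006 values under the alternatives, 3851 kept their side of the threshold, 95 lost the call and 60 gained one. A change of sign where either value was called occurred 0 times. Changes of sign between values that were not called were counted as kept. The count of keratins higher with ipatasertib than DMSO ranged from 0 to 1 with single libraries left out, and that of keratins higher with ipatasertib than tazemetostat likewise from 0 to 1. Keratins lower with tazemetostat than DMSO numbered 9 without tazemetostat A and combination B, against 5 with all libraries. Keratins lower in the combination than with ipatasertib numbered 8 with no filter on low counts, against 5. Interactions above 0 numbered 7 without tazemetostat A and combination B, and 0 to 5 with single libraries left out, the highest without combination B, against 2. Interactions below 0 numbered 3 with scaling by total counts alone, 3 with no filter, 2 with DESeq2, 2 with the replicate block, and 1 to 2 with single libraries left out, against 1. The cause was not tested. Except for the fit without tazemetostat A and combination B, the shares of all genes called in each direction are not given for these alternatives. Their keratin counts therefore have no background beside them. Where a group was left with 2 libraries the fit pooled the spread over all groups. The correlation of deviations from the group means was taken between libraries with the same letter. It lay between -0.141 and 0.446, above 0.1 for 4 of 18 pairs. The highest were 0.446 for tazemetostat A with combination A and 0.348 for tazemetostat B with combination B. The C libraries of these groups had -0.098, and tazemetostat C with combination B, of different letters, had 0.299. Whether the letters pair samples is therefore not settled, above all for tazemetostat and the combination. With the replicate block 8 keratins rose and 6 fell with tazemetostat, against 7 and 5, and 19 fell with the combination, against 18. In that fit 7124 of all genes were called in either direction with tazemetostat and 10699 with the combination.

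Scaling by total counts alone shifted the median log2 change over the genes tested by 0.115 (ipatasertib), 0.0705 (tazemetostat) and 0.135 (combination), and changes under it are relative to that shift. Ratios per kilobase were recomputed with the longest principal transcripts, an alternative chosen after seeing the data, which put KRT8 at 0.913 of KRT18 with ipatasertib and 1.07 under DMSO, against 1.005 and 1.17 with the shortest. Depth limits keratins near 1 CPM or below, such as KRT1, most.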
